A study of Mus musculus with 6 samples.

Results

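The genes described here are the 4 mouse Notch receptors (Notch1, Notch2, Notch3 and Notch4), the ligands Jag1 and Jag2, and the target genes Hes1, Hey1, Hey2 and Heyl. They were taken by symbol from the deposited gene table, and all 10 were found among its 23358 rows. RNA was sequenced from cultured mesenchymal stem cells of C57BL/6 mouse bone marrow, which are adherent stromal cells able to form bone, fat and cartilage, at passage 6 to 12. After 24 h of adhesion, 3 libraries came from cells transfected overnight with a non-targeting control siRNA and 3 from cells transfected with an siRNA against Dia2, given at 50 nM, and RNA was taken 24 h after the change of medium. Dia2 is the actin-nucleating formin encoded by Diaph3. The knockdown rests on 1 siRNA, and the letters of the non-targeting one are not known here. Nothing in the labels tells if each library is a culture of its own. A p-value here thus rests on how far libraries of a group differ, and that spread may be technical.

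Notch receptors are single-pass membrane proteins that are switched on by Jagged or Delta-like ligands on a neighbouring cell. Binding leads to cleavage of the receptor, first by an ADAM protease and then by gamma-secretase, and the freed intracellular part enters the nucleus, joins the DNA-binding protein RBPJ and turns on genes such as those of the Hes and Hey families, which encode basic helix-loop-helix repressors. In bone marrow stroma the pathway is known for holding progenitors back from becoming osteoblasts, and Notch3 is known as the receptor of pericytes and vascular smooth muscle, whereas Notch4 is best known from endothelium.

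Total counts ranged from 70538768 to 110006338 per library, every count was even, and 1 library of each group (control replicate 3 and Dia2 replicate 1) held more of the ribosomal precursor Rn45s than the others, at 11.7% and 10.9% of its counts. The targeted gene Diaph3 was 10.7-fold lower with Dia2 siRNA, from 83.2 ± 2.7 to 7.76 ± 0.532 CPM (counts scaled by library total and TMM factors, mean ± SD, n = 3 each). Of the mesenchymal markers the defining Pdgfra and Ly6a were present, but Thy1 lay at or under 0.107 CPM in every library, where the floor of 6 counts corresponds to 0.0545 to 0.0851 CPM. The 10 mesenchymal markers summed to 2219 to 2291 CPM in the control and 3166 to 3243 CPM in the Dia2 libraries. Of these markers 9 of 9 tested were higher, against 29.3% of all genes tested. The part of these markers in the rises of Notch genes given below was not tested.

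The start regions of the receptor genes are shown first, as a description. Whether their sequence bears on the direction of change was not tested. RefSeq start regions (GRCm38.p6, 250 bases before to 50 after the start site) were found for 7 of the 10 genes, Notch1, Notch2, Notch3, Notch4, Jag1, Jag2 and Hey2. Those of Notch2 (chr3:98013288-98013587, plus strand), Notch3 (chr17:32166841-32167140, minus strand) and Notch4 (chr17:34564045-34564344, plus strand) read as follows, 5′ to 3′, with each CG pair in capitals.
Notch2: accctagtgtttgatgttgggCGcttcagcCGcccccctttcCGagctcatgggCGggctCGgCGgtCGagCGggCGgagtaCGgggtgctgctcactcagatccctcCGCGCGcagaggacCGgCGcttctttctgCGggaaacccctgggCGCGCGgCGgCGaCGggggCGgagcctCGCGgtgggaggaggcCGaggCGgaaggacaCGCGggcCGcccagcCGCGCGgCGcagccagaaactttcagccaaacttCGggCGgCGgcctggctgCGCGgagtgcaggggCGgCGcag
Notch3: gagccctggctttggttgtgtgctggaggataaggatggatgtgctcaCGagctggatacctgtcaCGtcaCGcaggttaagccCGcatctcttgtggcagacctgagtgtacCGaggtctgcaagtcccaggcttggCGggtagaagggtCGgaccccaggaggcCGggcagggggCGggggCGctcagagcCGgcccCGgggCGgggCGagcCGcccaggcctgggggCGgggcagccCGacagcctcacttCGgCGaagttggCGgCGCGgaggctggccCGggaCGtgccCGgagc
Notch4: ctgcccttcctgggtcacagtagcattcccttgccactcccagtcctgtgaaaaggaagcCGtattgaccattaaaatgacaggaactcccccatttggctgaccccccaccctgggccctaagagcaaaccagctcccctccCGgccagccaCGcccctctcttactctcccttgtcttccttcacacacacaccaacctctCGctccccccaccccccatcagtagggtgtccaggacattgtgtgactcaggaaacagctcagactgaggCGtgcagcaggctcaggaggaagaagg
The Notch4 region held 5 CG pairs, against 41 in Notch2, 25 in Notch3 and 23 in Notch1. The median over all 32851 start regions of the table was 7, and 43.6% had 5 or fewer. Jag1, Jag2 and Hey2 held 22, 63 and 29. The CG count was chosen after the expression values had been seen.

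The core RBPJ word TGGGAA, searched on both strands, occurred in 25.6% of all start regions, and among the 7 genes in Hey2 alone, with 2 copies. Both copies were part of the longer word GTGGGAA, which 6.38% of all start regions hold. The Hey2 region (chr10:30842734-30843033, minus strand) is shown with the 6-base word in capitals on either strand, the first copy being read as its reverse complement and the second lying across the start site.
Hey2: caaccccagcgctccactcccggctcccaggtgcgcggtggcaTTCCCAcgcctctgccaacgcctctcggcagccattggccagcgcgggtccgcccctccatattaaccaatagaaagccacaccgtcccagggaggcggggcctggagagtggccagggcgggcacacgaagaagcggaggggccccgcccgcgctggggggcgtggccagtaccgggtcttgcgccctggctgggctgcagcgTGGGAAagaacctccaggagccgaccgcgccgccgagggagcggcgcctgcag
The N-box CACNAG, a word bound by Hes proteins, occurred in 42.5% of all start regions, with 3 copies in Notch1, 2 in Notch3, 1 in Notch2 and none in the other 4 genes. The E-box CACGTG occurred in none of the 7 and in 7.15% of all. These matches describe the letters of a 300-base window and not sites in use.

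With Dia2 siRNA the receptor transcripts moved in opposite directions. Notch4 fell 3.99-fold, while Notch3 rose 1.66-fold, Notch2 1.55-fold and Notch1 1.22-fold. Among ligands and targets, Jag1 rose 1.14-fold and Hes1 1.35-fold. Of the 10 genes, 8 passed the filter on low counts, of which 5 were higher and 1 lower at an adjusted p under 0.05 (edgeR's quasi-likelihood test, Benjamini-Hochberg over 14151 genes), and Jag2 and Hey2 did not pass the test. Of all genes tested, 59.2% passed, 29.3% higher and 29.9% lower, so a count of 6 in 8 is close to what any genes of these libraries gave and is no result about the family. The median log2 fold change of the 8 was 0.30, and that of all genes tested 0.01. In bulk RNA, fewer cells of a type and less RNA per cell cannot be told apart.

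**Figure D1:**
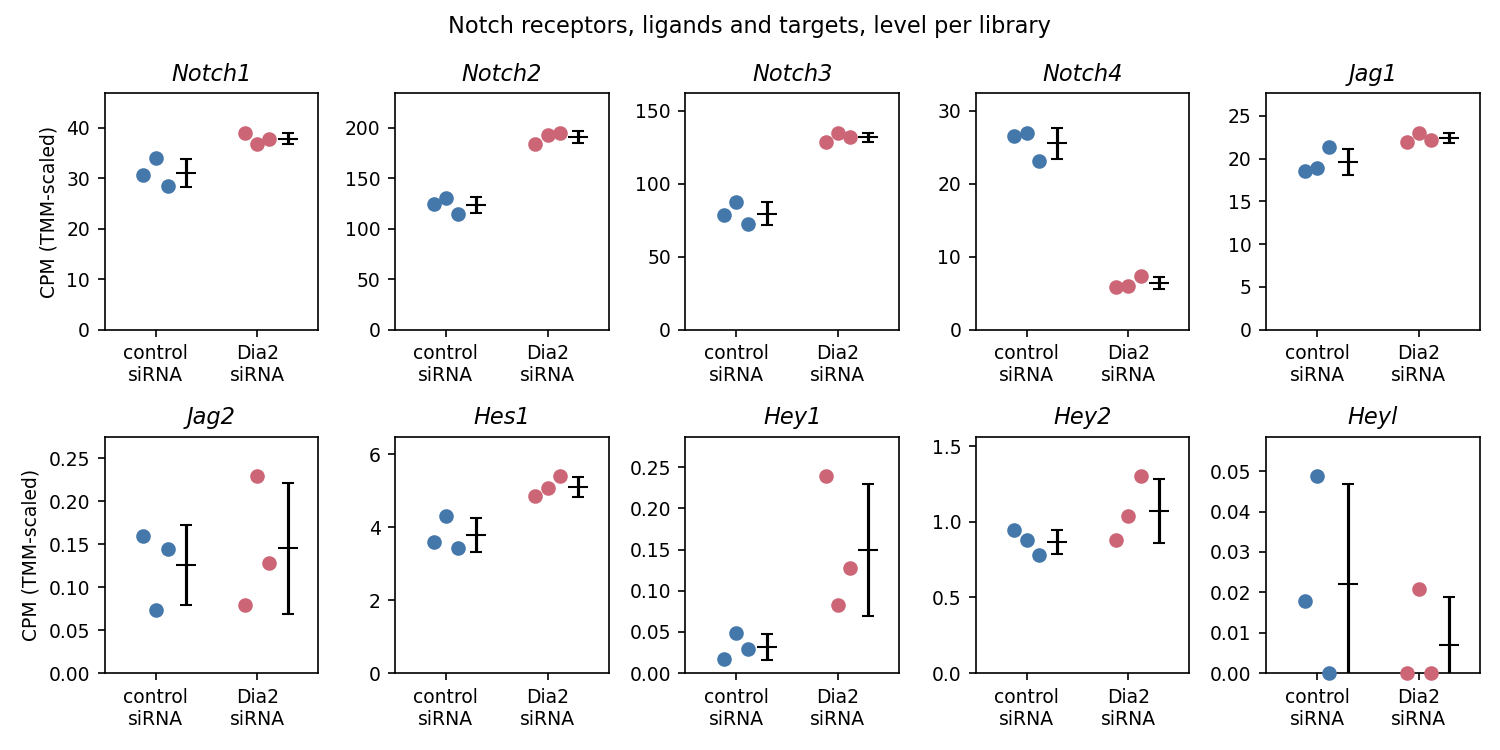
Level of each of the 10 genes per library, in CPM scaled by TMM factors, on linear axes that start at 0, with control siRNA in blue and Dia2 siRNA in red. Points are libraries (replicates 1 to 3 from left to right in each group), and the black bars give the mean ± SD, which for Heyl is drawn only above 0. Notch4 goes from 23.1 CPM or more to 7.31 CPM or less, Notch1, Notch2, Notch3 and Hes1 lie higher in all 3 Dia2 libraries, and Jag2, Hey2 and Heyl overlap between groups.

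Notch4 lies on chromosome 17 (34564295 to 34588543, plus strand). Control replicates 1, 2 and 3 gave 26.6, 27 and 23.1 CPM, while the Dia2 libraries gave 5.85, 6.04 and 7.31 CPM. The lowest control library was thus more than 3 times the highest Dia2 library, and the libraries within a group differed little. The group means, 25.5 ± 2.15 and 6.4 ± 0.794 CPM (SD, n = 3 each), differed by -2.00 ± 0.09 on the log2 scale (SE; adjusted p = 7.37e-09, edgeR). Among the genes tested, 2.76% fell at least 2-fold and 0.481%, 68 genes, fell by as much as Notch4 or more.

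Because Notch4 is best known from endothelium and some blood cells carry Notch receptors, the markers of these cells are given beside its fall. The 8 endothelial markers together gave 2.06 to 2.17 CPM in the control and 1.78 to 2.2 CPM in the Dia2 libraries, each of the 8 with a mean under 1 CPM over the 6 libraries. Of the defining ones, Cdh5 was at 0 in every control library, Pecam1 lay between 0.0417 and 0.159 CPM in all 6 libraries, and Kdr went from 1.15 to 0.646 CPM. Of the 4 endothelial markers tested, 1 (Vwf) was higher and 1 (Kdr) lower. The 9 blood and macrophage markers summed to 20.8 to 22.8 CPM in the control and 12.9 to 14.3 CPM in the Dia2 libraries. The largest part of that sum was Cd14 (10 and 6.79 CPM). Of 6 tested, 4 were lower and none higher, while of all genes tested 59.2% passed, 29.9% lower. The defining Cd53 fell from 3.41 to 0.675 CPM, but Csf1r (2.92 and 3 CPM) and Lyz2 (0.779 and 1.09 CPM) did not pass the test. Ptprc and Itgam were near 0, Itgam with 0, 2 and 0 counts in the control against 10, 6 and 6 with Dia2 siRNA. The part of endothelial and blood cells in the fall of Notch4 was not tested.

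Notch2 and Notch3, the first 2 receptors in level per length, both rose. Notch2 (chromosome 3, 98013538 to 98150367, plus strand) measured 125, 130 and 115 CPM under control siRNA, compared with 184, 193 and 195 CPM under Dia2 siRNA. All 3 Dia2 libraries lay far above the control libraries, with means of 123 ± 7.55 and 191 ± 5.78 CPM and a rise of 0.63 ± 0.05 on the log2 scale (adjusted p = 7.63e-07, edgeR). Notch3 (chromosome 17, 32120893 to 32166852, minus strand) stood at 78.5, 87.9 and 72.4 CPM against 129, 135 and 132 CPM. Its groups were as clearly apart, with means of 79.6 ± 7.78 and 132 ± 2.88 CPM (log2 fold change 0.73 ± 0.06, adjusted p = 1.07e-06, edgeR). Notch3 is known in pericytes and smooth muscle, and of their markers 5 of 8 tested were higher and none lower. The share called, 62.5%, was close to the 59.2% of all genes tested, of which 29.3% were higher. The 9 listed markers summed to 2311 to 2582 CPM in the control and 3141 to 3334 CPM in the Dia2 libraries. Most of that sum was Acta2 (2326 and 2989 CPM), which other contractile and activated stromal cells also express. Myh11 (0.465 and 0.536 CPM), Des (49.4 and 54.4 CPM) and Abcc9 did not pass the test, and Kcnj8 lay near 0. The part of such cells in the rise of Notch3 was not tested. The defining Cspg4 rose 2.71-fold, Mcam 1.43-fold and Rgs5, from 1.84 to 3.07 CPM, 1.69-fold.

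Notch1 (chromosome 2, 26457902 to 26503822, minus strand), the receptor most studied in blood and stem cells, rose least. Its control values were 30.7, 34 and 28.4 CPM, and its Dia2 values 39, 36.8 and 37.8 CPM. The groups were separate, though by a small margin (means 31.1 ± 2.79 and 37.9 ± 1.1 CPM, log2 fold change 0.29 ± 0.07, adjusted p = 0.0036, edgeR).

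**Figure D2:**
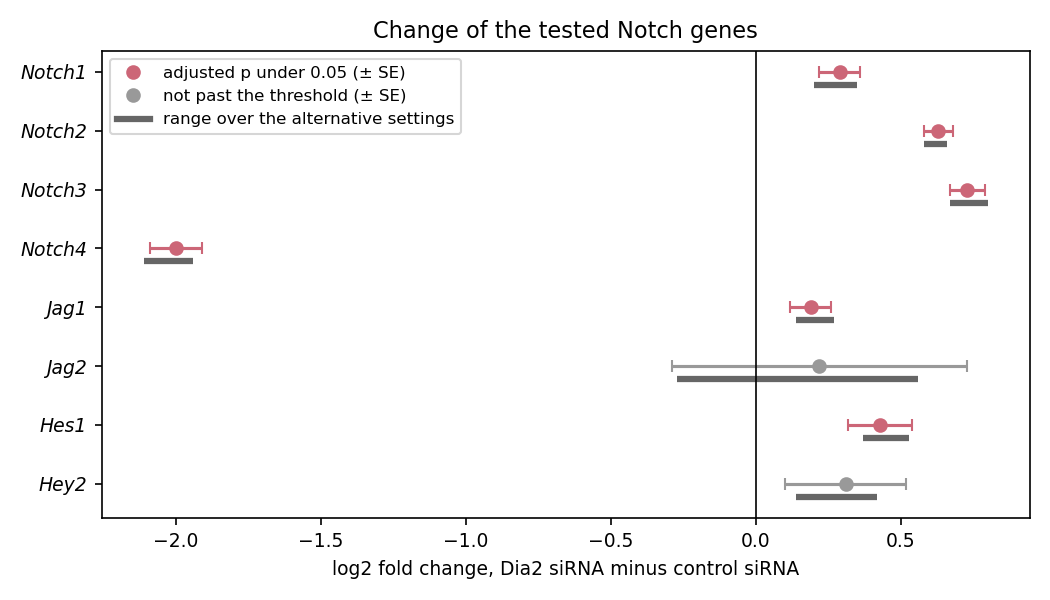
Log2 fold change (Dia2 siRNA minus control siRNA, x axis) of the 8 genes that passed the filter on low counts, as points with ± SE, red where the adjusted p was under 0.05 and grey where it was not. The dark bar under each point spans the values under the alternative settings. Notch4 lies at -2.00 with a range of -2.11 to -1.94, the other 3 receptors lie above 0 under all settings, and only the bar of Jag2 crosses 0.

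Levels of different genes were compared per length, with the deposited RPKM values (counts scaled to the coding length and the library total). In the control cells Notch2 (10 ± 1.02 RPKM) and Notch3 (8.57 ± 1.15) came first, with overlapping values. Notch4 (3.31 ± 0.411), Jag1 (3.04 ± 0.113), Notch1 (2.8 ± 0.355) and Hes1 (2.23 ± 0.349) followed, and each overlapped its neighbour in the order. Hey2 (0.293 ± 0.0378) stood apart below them, and Jag2, Hey1 and Heyl, all at or below 0.0344 RPKM, were scarcely present. With Dia2 siRNA Notch4 moved from the third place to the sixth, at 0.807 ± 0.13 RPKM, below Hes1 (2.93 ± 0.279) and above Hey2 (0.354 ± 0.0848), and it overlapped neither. Notch2 and Notch3 remained first and second in mean level and still overlapped, at 15.1 ± 1.09 and 13.8 ± 0.823 RPKM. Within each library, however, Notch2 lay above Notch3. The ratio of Notch3 to Notch2 was 0.829 to 0.897 in the control and 0.898 to 0.929 in the Dia2 libraries.

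The makeup of the receptor transcripts shifted accordingly. Of the summed receptor RPKM, Notch4 held 13.8%, 13.2% and 13.2% under control siRNA but only 2.28%, 2.27% and 2.75% under Dia2 siRNA. Notch3 held 34.6% ± 0.85 and 41.9% ± 0.513 (SD, n = 3 each), and Notch2 40.6% ± 0.814 and 45.7% ± 0.416. The share of Notch1 was 11.3% ± 0.2 in the control and 10% ± 0.494 with Dia2 siRNA, lower although its level was higher. The summed receptor RPKM did not fall, at 21.5 to 27.2 in the control and 30.7 to 34.6 in the Dia2 libraries. The ratio of Notch2 to Notch4 went from between 2.97 and 3.13 to between 16.7 and 20.1. These shares are descriptions of each library and carry no test.

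**Figure D3:**
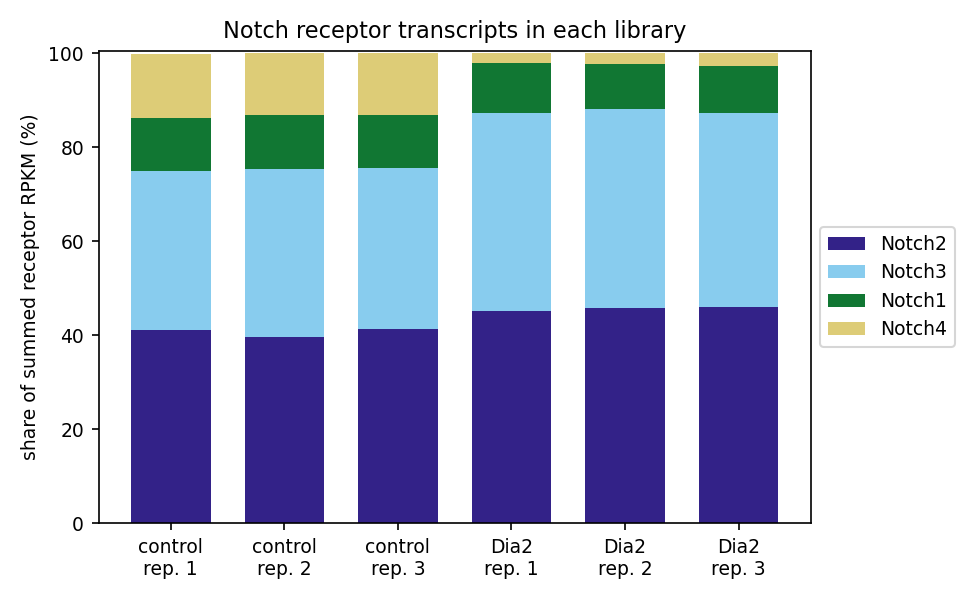
Share of each Notch receptor in the summed deposited RPKM of the 4 receptors (y axis, percent), 1 bar per library. The Notch4 segment at the top shrinks from 13.2% to 13.8% in the control bars to 2.27% to 2.75% in the Dia2 bars, and the segments of Notch2 and Notch3 widen.

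Jag1 carried nearly all of the Jagged transcripts. It lies on chromosome 2 (137081451 to 137116520, minus strand) and made up 98.7% to 99.5% of the summed Jag1 and Jag2 RPKM in the 6 libraries. Jag1 measured 18.5, 18.9 and 21.4 CPM under control siRNA, compared with 21.9, 23 and 22.2 CPM under Dia2 siRNA. Control replicate 3 came close to the Dia2 libraries, so the groups were only just separate. The means were 19.6 ± 1.56 and 22.4 ± 0.579 CPM (log2 fold change 0.19 ± 0.07, adjusted p = 0.0278, edgeR). This call was lost without control replicate 1 (0.14, adjusted p = 0.106), control replicate 2 (0.16, 0.0795), Dia2 replicate 2 (0.17, 0.101) or Dia2 replicate 3 (0.19, 0.0611), and with no composition factor (0.17, 0.0536).

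Jag2 (chromosome 12, 112908590 to 112929495, minus strand), the other Jagged ligand, gave 18, 6 and 10 counts under control siRNA against 6, 22 and 12 under Dia2 siRNA. The groups overlapped and 2 of the 6 values were at the floor. Its log2 fold change of 0.22 ± 0.51 had a 95% interval of -0.90 to 1.34 (adjusted p = 0.738, edgeR), so a change of near 2-fold in either direction was not detectable at this depth.

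Of the 4 target genes only Hes1 gave a call. Hes1 (chromosome 16, 30065357 to 30067796, plus strand) encodes a repressor that also binds its own promoter, and it held 86.6% to 88.7% of the summed Hes1, Hey1, Hey2 and Heyl RPKM in the 6 libraries. Its control values were 3.6, 4.31 and 3.42 CPM, compared with 4.84, 5.08 and 5.39 CPM under Dia2 siRNA. All Dia2 libraries were above all control libraries (means 3.78 ± 0.47 and 5.1 ± 0.275 CPM, log2 fold change 0.43 ± 0.11, adjusted p = 0.0045, edgeR). Groups that do not overlap were common in these data, at 64.6% of the genes tested (32.3% higher and 32.2% lower), and were found for 6 of the 8 Notch genes tested, 5 higher and 1 lower.

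Hey2 (chromosome 10, 30832359 to 30842783, minus strand), whose start region holds both RBPJ words, measured 0.944, 0.877 and 0.783 CPM under control siRNA, compared with 0.877, 1.04 and 1.3 CPM under Dia2 siRNA. Dia2 replicate 1 lay within the control range, and the log2 fold change of 0.31 ± 0.21 did not pass the test (95% interval -0.15 to 0.76, adjusted p = 0.23, edgeR). Without Dia2 replicate 3 it was 0.14. Heyl (chromosome 4, 123233556 to 123249870, plus strand) gave 2, 4 and 0 counts under control siRNA against 0, 2 and 0 under Dia2 siRNA, all under the floor of 6 counts, so no fold is given. With no filter on low counts its adjusted p was 0.527 in edgeR.

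Hey1 (chromosome 3, 8663359 to 8667038, minus strand) was too scarce for the filter, with 2, 4 and 2 counts under control siRNA against 18, 8 and 12 under Dia2 siRNA. All control libraries were under the floor and all Dia2 libraries above it. Read as fragments of 2 counts, 4 control and 19 Dia2 fragments gave a ratio per library total of 4.66, with an exact 95% counting interval of 1.55 to 18.8 that covers counting error only. With no filter on low counts Hey1 had an adjusted p of 0.0361 in edgeR, from the counts as deposited. Halved counts were not fitted without the filter, so this p may overstate the evidence.

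Words that earlier results of these data had tied to falling or rising genes were looked up in the annotated 3′ UTRs of protein-coding GENCODE M21 transcripts, together with the word that pairs with bases 2 to 8 of the Dia2 siRNA's antisense strand, AACTTAA. The word TATGTGA occurred in 13.6% and ATGTGAA in 18.3% of the 13004 tested genes with a 3′ UTR, with 16.9% and 24.3% among the genes called lower. The word that pairs with the same bases of the sense strand, GGACTCT, was looked up too. The Notch4 3′ UTR of 518 bases holds none of these words, nor GCAGTAC. Of the 10 genes, ATGTGAA was found in Notch2 and TATGTGA in Hes1, both of which rose. GCAGTAC, the word of rising genes (10.2% of genes called higher, 6.15% of all), was found in Hey1, and AACTTAA in Jag1 and Jag2 (13.9% of all, 16.5% of genes called higher and 12.5% of those called lower). GGACTCT was found in Notch2 and Notch3 (13.3% of all, 15.8% and 12.5%). Sites of 4 of the words are shown, with the word in capitals, to place it in its gene: Notch2 at chr3:98149555-98149561, Hes1 at chr16:30067703-30067709, Hey1 at chr3:8663534-8663540 and Jag1 at chr2:137082382-137082388 (GRCm38, coordinates of the word).
Notch2: taggaggagggATGTGAAaactgccgtga
Hes1: atttcttttttTATGTGAtgccaaagatg
Hey1: atgtggttcttGCAGTACttaaaagggct
Jag1: tttgatttattAACTTAAtaatcaagagc
The longest stretch of either siRNA strand found in any transcript of the 10 genes was 9 bases, against all 25 in Diaph3.

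The other genes of the pathway, 83 in 10 lists by role, were mostly expressed. The filter kept 74, of which 34 rose, 22 fell and 18 did not pass the test (75.7% called, against 59.2% of all genes), with a median log2 fold change of 0.15. The 59.2% takes in many scarce genes, which were called less often. With a mean CPM of at least 1 as the filter, 55 of 67 pathway genes and 7747 of 11664 genes in all were called. Most changes were below 2-fold, and the lists held rises and falls side by side except for the ligands and their ubiquitin ligases, where no gene was called lower.

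Among the other ligands 2 of 4 tested were higher. Dlk2, a Delta-like protein without the domain that activates Notch, rose 2.85-fold (5.39, 5.28 and 4.15 CPM in the control, 13.5, 13.6 and 15.4 CPM with Dia2 siRNA; adjusted p = 1.31e-07, edgeR). Dll1, an activating ligand, was scarce at 0.303, 0.292 and 0.348 CPM and rose to 1.2, 1.06 and 0.812 CPM (log2 fold change 1.70 ± 0.25, adjusted p = 0.000107); it falls under the level required for named genes and was added after its values were seen. Dll4 had no count in any library. Per length, Dll1 lay at 0.078 RPKM in the control and 0.247 RPKM with Dia2 siRNA, below Jag1 at 3.04 and 3.39 RPKM. Of the 4 E3 ligases that act on ligands, 3 were higher, with Neurl1b up 2.31-fold (8.06 ± 0.8 to 18.6 ± 1.13 CPM) and Mib1, the main such ligase, up 1.25-fold.

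Enzymes that place sugars on the receptors moved both ways, 3 higher and 1 lower of 5 tested. Lfng, a Fringe enzyme that alters which ligands a receptor answers to, stood at 12.9, 11.9 and 10.6 CPM in the control and at 21.3, 21.7 and 21.8 CPM in the Dia2 libraries. Its Dia2 values were nearly equal and all above the control (1.82-fold, adjusted p = 8.54e-07, edgeR). Pofut1, which adds the fucose that Fringe enzymes extend, fell 1.39-fold from 77.8 ± 2.92 to 56 ± 2.3 CPM. Rfng and Eogt rose by 0.20 and 0.13 on the log2 scale, calls that were lost without Dia2 replicate 2 or 3 and, for Eogt, also without control replicate 2 or Dia2 replicate 1 (adjusted p of 0.0515 to 0.149). Both were also lost with no composition factor (adjusted p = 0.0589 and 0.0893).

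The ADAM proteases that cut the receptor rose, while parts of gamma-secretase differed in direction. Furin, which cuts the receptor during its maturation, stood at 238 ± 25.3 and 242 ± 8.17 CPM and did not pass the test (adjusted p = 0.771, edgeR). Adam10 rose 1.61-fold, from 124, 123 and 144 to 222, 206 and 202 CPM, and Adam17 1.29-fold, from 84.8 ± 2.46 to 110 ± 3.32 CPM. Within gamma-secretase, nicastrin (Ncstn) rose 1.3-fold and Aph1b 1.36-fold, whereas Psen2 (-0.31 ± 0.07 on the log2 scale) and the scaffold Aph1a (-0.17 ± 0.05) fell. Aph1b has a near-identical copy, Aph1c (1.09 and 1.26 CPM, not past the threshold), so reads may have been split between them. Of the 10 cleavage genes 4 were higher and 3 lower.

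In the nucleus, Rbpj rose 1.28-fold (221 ± 14.5 to 283 ± 16 CPM) and the coactivator Maml2 1.64-fold (20.7 ± 2.14 to 34.1 ± 1.03 CPM). The acetyltransferase gene Kat2b fell 1.56-fold and Snw1, an RBPJ-binding adaptor, 1.28-fold, and of 9 genes of the activation complex 3 were higher and 4 lower. Of 12 genes listed as RBPJ corepressors 2 were higher and 6 lower. The deacetylase gene Hdac1 fell 1.41-fold (136 ± 4.42 to 96.3 ± 0.744 CPM). Ctbp2 (1.29-fold), Rita1 (1.26-fold) and Kyat1 (1.4-fold) were lower too. Kyat1 encodes a kynurenine aminotransferase and not an RBPJ corepressor, but it stays in the counts of this list and of the pathway genes. Kyat1 and Rita1 lost their calls without control replicate 2 or Dia2 replicate 2, and Rita1 also without Dia2 replicate 1 (adjusted p of 0.0506 to 0.0774).

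The Groucho-type corepressors that Hes and Hey proteins recruit held the largest fall among the genes of the 10 lists that passed the test. Tle4 went from 7.9, 7.67 and 8.39 CPM to 2.9, 2.83 and 2.91 CPM. The groups were far apart and tight (2.77-fold lower, log2 fold change -1.47 ± 0.09, adjusted p = 6.11e-08, edgeR). Tle2 rose 1.81-fold, from 11.4 ± 1.28 to 20.5 ± 1.7 CPM, and Aes, a short relative of them, 1.23-fold, so that all 5 genes passed, 3 higher and 2 lower.

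Genes listed under receptor turnover and inhibition, not all of which limit Notch, were higher in 5 and lower in 2 of 9 tested. Dtx3l, a relative of the Deltex E3 ligases, rose 1.81-fold (15, 15 and 15.2 to 31.3, 25.1 and 25.6 CPM), Numbl, a Numb-like adaptor, 1.27-fold and the kinase gene Aak1 1.23-fold, while Itch, a ligase that acts on Notch, fell 1.36-fold. Of the other Hes-type repressors Bhlhe41 rose 1.62-fold, and Hes5, often the most responsive Notch target, had no count in any library. Nrarp, a feedback target, lay at or under 0.058 CPM. Of 12 further reported targets tested 7 were higher and 3 lower, with Pdgfrb up 1.74-fold and Sox9 1.72-fold and Snai2 down 1.47-fold. These genes answer to many other signals as well.

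**Figure D4:**
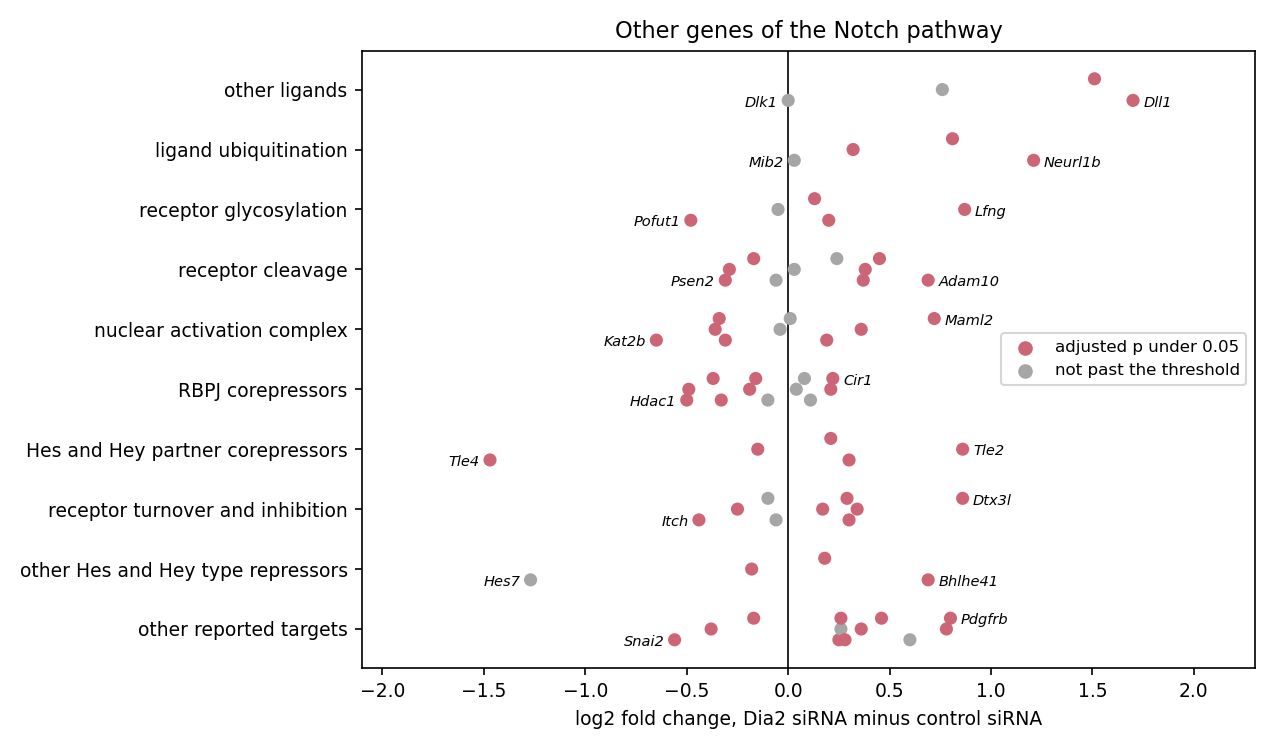
Log2 fold change (Dia2 siRNA minus control siRNA, x axis) of the tested genes of the 10 pathway lists (rows), red where the adjusted p was under 0.05 and grey where it was not, with the lowest and the highest gene of each row named. Tle4 at -1.47 and Dll1 at 1.70 lie farthest out among the genes past the threshold, and most others lie within 1 of 0.

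The genes most like each strongly changed receptor were sought by Pearson's r of log2(CPM + 0.5) over the 6 libraries, among 9985 genes with a mean of at least 5 CPM. Genes with a predicted or clone name were passed over when the most alike were picked. For Notch4 the genes picked were B4galt3 (r = 0.9998, log2 fold change -1.77), Ctnnd1 (0.9995, -0.16) and Nek6 (0.9994, -0.82). For Notch3 they were Selenon, Emp2 and Kdelr1 (0.9989 to 0.9992), and for Notch2 Ptprs, Fgfrl1 and Tead3 (0.9992 to 0.9998). Since the 6 points fall into the 2 groups, r mostly holds the difference between groups, and 395, 219 and 359 genes had an r above 0.99 with Notch4, Notch3 and Notch2. Ctnnd1, which changed by only -0.16, shows that likeness in r is not likeness in size.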

How the data were processed

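Each library has raw, deposited counts per gene and RPKM values that the authors derived from them, per the file headers. The submitters' processing notes name bcl2fastq, HTSeq and TopHat2 2.0.6, and the builds hg19 and GRCh37. The table nevertheless lists mouse genes, and its coordinates were read as GRCm38 because 99.3% of the 23047 matched symbols lay over the same gene in GRCm38.p6. Whether counting used strand, and how multiply mapped reads were handled, is unknown. GENCODE M21 genes that overlap Notch1, Notch2, Notch3, Notch4 and Jag2 have no row, and their reads cannot be told apart from those of the Notch genes.

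Genes were filtered with filterByExpr (the CPM of 10 counts in a library of median size, reached in at least 3 libraries, and 15 counts summed), normalised with TMM and tested with edgeR 4.0.16 (quasi-likelihood, robust; R 4.3.3) on siRNA group alone. SE is the absolute log2 fold change over the square root of F. The code was tested on simulated data. Replicates of a group differed by more than sampling noise (chi-square per degree of freedom 6.7 to 85.2), so all were kept. Alternatives were other size factors, other filters, DESeq2 1.42.0, limma-voom (limma 3.58.1), a replicate block, halved counts, exclusion of Rn45s and Lars2, and left-out libraries.

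The 10 genes and all lists were chosen with earlier results of these data known. All 10 were named whatever their p, and from each list up to 4 genes past the threshold with a mean CPM of at least 1 and the largest change, plus Rbpj, Adam10, Adam17, Ncstn, Mib1 and Pofut1. Other genes are named to describe their list, after their values were seen.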

Additional observations from a re-analysis of the deposited data

How the results depend on the processing

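Over 17 alternatives Notch1, Notch2, Notch3, Notch4 and Hes1 kept direction and call, with log2 fold changes of 0.20 to 0.35, 0.58 to 0.66, 0.67 to 0.80, -2.11 to -1.94 and 0.37 to 0.53. Jag1 kept its direction and lost its call in 5 of them. Jag2, which had no call, changed sign without control replicate 2 (-0.05) and without Dia2 replicate 2 (-0.27), and ranged from -0.27 to 0.48 over the fits without 1 library. Leaving out 1 library gave 5 to 7 Notch genes past the threshold, 46 to 57 other pathway genes and 7343 to 9193 genes in all, against 6, 56 and 8380. With control replicate 3 and Dia2 replicate 1, the libraries with most Rn45s, left out together, the counts were 6, 57 and 8984. Same-numbered libraries did not deviate together (correlations of -0.208, -0.067 and -0.274 over 9986 genes), so the numbers were not taken as pairs. With the replicate number as a block the counts were 6, 51 and 7772, and the calls of Eogt (0.13, adjusted p = 0.07) and Hes6 (-0.18, adjusted p = 0.0701) were lost among the pathway genes named by the rule. Among those genes, Hes6, Bhlhe40, Rfng, Eogt, Kyat1 and Rita1 also lost calls under other alternatives. Depth limits Jag2, Hey1 and Heyl, which lie near or under the floor of 6 counts.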

Other observations

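The rows next to Notch4 on chromosome 17 were looked at after its fall had been seen. Gpsm3, a modulator of G-protein signalling that starts 1263 bases beyond the end of Notch4, was also lower, at 11.1 CPM in the control and 5.31 CPM in the Dia2 libraries (log2 fold change -1.07 ± 0.10, adjusted p = 2.21e-06, edgeR). The next rows on that side did not pass the test. Pbx2, a homeobox gene, stood at 52.9 and 55.9 CPM (0.08 ± 0.05, adjusted p = 0.172), and Ager, the receptor for advanced glycation end products, at 0.932 and 0.701 CPM (-0.41 ± 0.22, adjusted p = 0.129). On the other side the nearest 3 rows, Btnl6, Btnl5-ps and Btnl4, had almost no counts.

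The neighbours of the receptors that rose did not share a direction. Beside Notch2, Sec22b fell (-0.84 ± 0.05, adjusted p = 3.59e-08, edgeR) and Pde4dip rose (0.53 ± 0.04, adjusted p = 4.71e-07). Beside Notch3, Rrp1b and Akap8 fell, each at -0.39. Beside Notch1, Sec16a and Inpp5e rose (0.32 and 0.40), Pmpca and Agpat2 fell (-0.43 and -0.46), and Egfl7, which is best known from endothelium, did not pass (-0.21 ± 0.16, adjusted p = 0.304).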
